A study of Mus musculus with 6 samples.

Results

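The genes described here are 7 genes of Schwann cells, myelin and nerve repair, *Mbp*, *Pmp22*, *Prx*, *S100b*, *Sox10*, *Ngfr* and *Gdnf*. They were taken by gene symbol from a table of 41709 genes, and all 7 had a row in it. The table holds RNA-seq values of 6 tibialis anterior (TA) muscles of male C57BL/6 J mice, collected 14 days after electroporation. In 3 muscles the plasmid encoded Flag-tagged wild-type Lrpprc (LrpprcWT, the control), and in 3 it encoded Flag-tagged Lrpprc in which the proline that is dihydroxylated was replaced by alanine (LrpprcP27A). Lrpprc is an RNA-binding protein and transcriptional coactivator, found in both nucleus and mitochondria. The study asked whether the loss of this modification alters gene expression in muscle. Contralateral muscles of the same mice received the 2 plasmids. Both groups were treated with hyaluronidase, injected with DNA and electroporated, and both kept the mouse's own *Lrpprc* gene, so neither is an untouched muscle. The sources used here do not say whether the sequenced muscles came from the study's young or old mice.

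Motor and sensory axons reach muscle fibres inside intramuscular nerves, wrapped by Schwann cells. Myelinating Schwann cells build a compact sheath from a small set of abundant proteins, non-myelinating Schwann cells enclose thin axons, and terminal Schwann cells cover the neuromuscular junction. After nerve injury Schwann cells leave the myelinating state and turn on a repair programme that includes the neurotrophin receptor Ngfr and trophic factors such as Gdnf, and denervated muscle fibres and satellite cells also change their trophic output.

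Levels are given as TPM, which counts transcripts of a gene among 1000000 transcripts of its library after correction for length. Levels of different genes can therefore be compared within a library, but the number of reads behind a value is unknown. Differences were tested with limma, on the scale of log2(TPM + 1), in those 11611 genes whose mean over the 6 libraries was 1 TPM or more, and a gene was called at an adjusted p (Benjamini-Hochberg over all genes tested) under 0.05. A difference on this log2 scale understates the change of genes at low levels. The paired fit adds the replicate number, taken here to stand for the mouse, as a block. Most genes were lower with LrpprcP27A on the deposited scale, with a median log2 difference (LrpprcP27A minus LrpprcWT) of -0.32 and 88% of genes below 0. After median-of-ratios scaling of the libraries the median was -0.0047. 18S ribosomal RNA had 8874 to 17614 TPM with LrpprcWT and 37023 to 44435 TPM with LrpprcP27A. Genes of the mitochondrial genome took 36.0% to 45.2% of the TPM in the LrpprcWT libraries and 44.2% to 46.1% in the LrpprcP27A libraries, and *Lrpprc* itself had 35.1 to 75.2 and 26.0 to 29.7 TPM. Muscle was plain in every library, since the 5 muscle fibre markers *Acta1*, *Ckm*, *Myh4*, *Tnnt3* and *Mylpf* summed to between 91672 and 109539 TPM.

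Of the 7 genes, *Gdnf* and *Pmp22* fell with LrpprcP27A, *Ngfr* fell in the paired fit but not in the unpaired one, and the myelin genes *Mbp* and *Prx* and the Schwann cell regulator *Sox10* had overlapping groups. *Gdnf* was 4.45-fold higher with LrpprcWT than with LrpprcP27A on the TPM scale, *Ngfr* 1.99-fold, *S100b* 1.91-fold and *Pmp22* 1.71-fold. The corresponding ratios of *Prx*, *Mbp* and *Sox10* were 1.31, 1.11 and 1.01. A mean of at least 1 TPM was reached by 5 of the 7 genes. *S100b* and *Sox10* were just under it, with means of 0.976 and 0.855 TPM over the 6 libraries. *Gdnf* and *Ngfr* reached that level through the LrpprcWT group, since their LrpprcP27A means were 0.620 and 0.832 TPM. With no filter their limma adjusted p was 0.0514 and 0.130. *Gdnf* and *Pmp22* were 2 called lower of 5 tested, where 23.3% of all genes tested were called lower. For so few genes that count is near the share of all genes. None of the 5 was called higher, against 1.34% of all genes. In the paired fit 3 of the 5 were called lower, also near the share of all genes, 48.4%. After median-of-ratios scaling 1 of the 5, *Gdnf*, was called lower, against 6.03% of all genes. With no filter on low values none of the 7 was called, where 0.196% of 21450 genes were called lower and 31.1% had an unadjusted p under 0.05 in that direction. At an unadjusted p under 0.05 in that fit, 4 of the 7 were lower. The count was 1 with a mean of at least 5 TPM (*Pmp22*, against 22% of all genes). It was also 1 (*Gdnf*) with quantile normalization (4.46% of all genes), when rescaled without mitochondrial and ribosomal RNA genes (5.71%) and with the block and median-of-ratios scaling (15.8%, or 5.38% with no filter). With no filter, 1 was lower under median-of-ratios scaling (0.345% of all genes) and 2 with the block (15%). In bulk muscle, fewer cells of a type and less RNA per cell cannot be told apart.

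**Figure D1:**
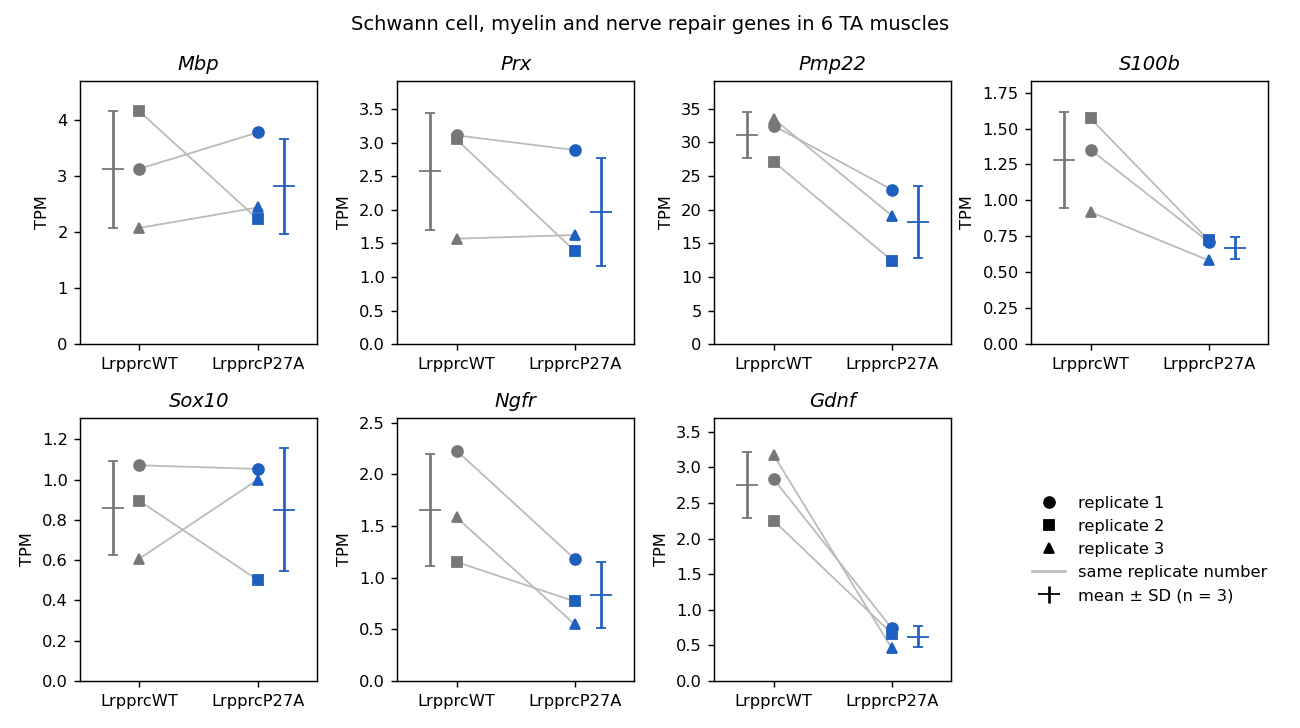
TPM (y axes, from 0) of the 7 genes in the LrpprcWT (grey) and LrpprcP27A (blue) libraries, with grey lines between libraries of the same replicate number and the mean ± SD (n = 3) beside the points. The LrpprcP27A values of *Gdnf*, *Pmp22* and *S100b* all lay below the LrpprcWT values, as for 34.8% of the 21450 genes above 0 in any library. Those of *Mbp*, *Prx*, *Sox10* and *Ngfr* overlapped the LrpprcWT values.

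Positions below are those of GENCODE on GRCm39, which may differ from the annotation behind the deposited values. *Mbp* (myelin basic protein, on chromosome 18) encodes the protein that holds the cytoplasmic faces of the myelin membrane together. It had 3.13, 4.15 and 2.07 TPM in the LrpprcWT libraries of replicates 1, 2 and 3, and 3.78, 2.23 and 2.44 TPM in the LrpprcP27A libraries. The groups overlapped, and the highest LrpprcP27A value, in replicate 1, exceeded both the LrpprcWT value of its pair and that of replicate 3. The log2 difference was -0.10 (standard error 0.23, limma adjusted p = 0.724), and 79.8% of the genes tested had a lower one. It was 0.17 after median-of-ratios scaling (adjusted p = 0.688 from limma), so no direction can be given.

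*Prx* (chromosome 7, 27196813 to 27219639) encodes periaxin, which links the outer Schwann cell membrane to the basal lamina and is needed for stable myelin. It had 3.11, 3.05 and 1.57 TPM with LrpprcWT and 2.89, 1.39 and 1.63 TPM with LrpprcP27A. Replicate 1 was high and replicate 3 low in both groups, and replicate 2 was high with LrpprcWT and low with LrpprcP27A. The log2 difference was -0.27 (standard error 0.24, adjusted p = 0.380 from limma), close to the median of all genes. It was -0.026 after median-of-ratios scaling and 0.11 after quantile normalization.

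*Sox10* (chromosome 15, 79039108 to 79049469) encodes the transcription factor that specifies Schwann cells and is required at every stage of their development. It had 1.07, 0.894 and 0.608 TPM with LrpprcWT and 1.05, 0.501 and 1.00 TPM with LrpprcP27A. The group means were 0.858 ± 0.234 and 0.851 ± 0.304 TPM (SD, n = 3), and they differed by less than the SD of either group (exact permutation test, two-sided, p = 0.9).

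*Mbp*, *Prx* and *Sox10* shared a feature across the pairs of libraries with the same replicate number. For *Mbp* the LrpprcP27A muscle had 1.21, 0.536 and 1.18 times the level of the LrpprcWT muscle in pairs 1, 2 and 3. For *Prx* these ratios were 0.930, 0.455 and 1.04, and for *Sox10* they were 0.983, 0.561 and 1.65. In pair 2 the 3 genes were thus at 0.561 times or less, and in the other pairs their ratios lay between 0.930 and 1.65. This feature was picked out after the values were seen and is given without a test.

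**Figure D2:**
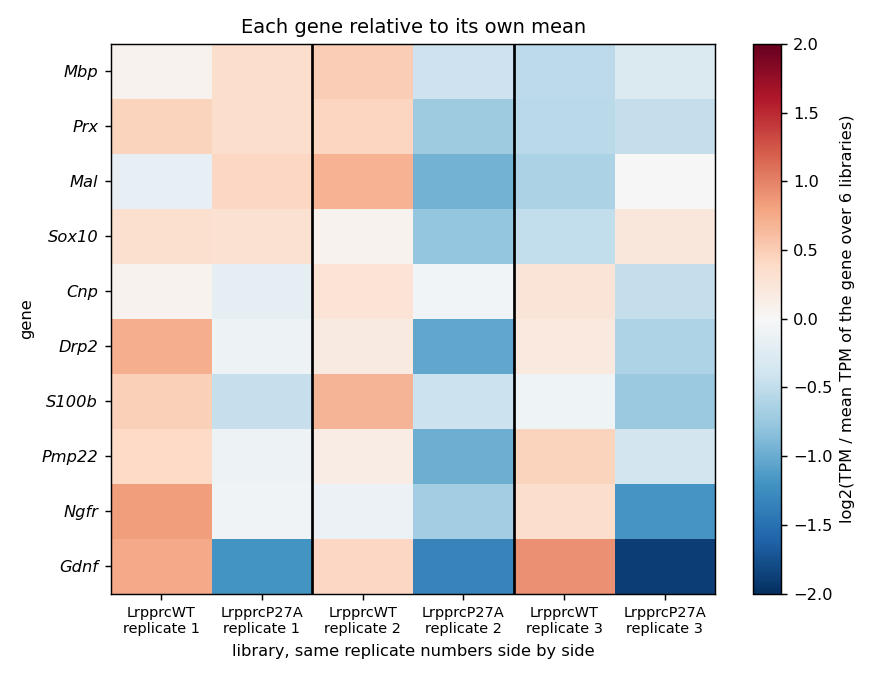
Colour shows log2 of TPM divided by the gene's mean TPM over the 6 libraries (rows: genes; columns: libraries, with same-numbered replicates side by side between the black lines). *Mbp* and *Prx* are above their means in both libraries of replicate 1 (*Mbp* only just so with LrpprcWT) and in LrpprcWT replicate 2. They are below their means in the other LrpprcP27A libraries and LrpprcWT replicate 3, whereas *Gdnf* is low in the 3 LrpprcP27A libraries.

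*Pmp22* (chromosome 11, 63019718 to 63050600) encodes a membrane protein of compact myelin whose dosage is altered in inherited neuropathies, and it is also expressed in fibroblasts and other cells outside nerve. It was the most abundant of the 7 genes, with 32.5, 27.1 and 33.5 TPM in the LrpprcWT libraries and 22.9, 12.4 and 19.1 TPM in the LrpprcP27A libraries. Each LrpprcP27A value was below each LrpprcWT value, as for 47.6% of all genes tested. *Pmp22* fell from 31.0 ± 3.41 to 18.2 ± 5.32 TPM (SD, n = 3), a log2 difference of -0.78 (standard error 0.21, limma adjusted p = 0.0327). The call was lost after median-of-ratios scaling, where the log2 difference was -0.42 (limma adjusted p = 0.157, or 0.104 in the paired fit). It was also lost without LrpprcWT replicate 1 or 3 or LrpprcP27A replicate 2 or 3, with an adjusted p from limma of 0.0997, 0.135, 0.0904 and 0.0705. The mouse gene has several starts, one used mainly by myelinating Schwann cells and others in many tissues, and the deposited value is for the gene as a whole.

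*S100b* (chromosome 10, 76085090 to 76097159) encodes a calcium-binding protein used to stain Schwann cells. It had 1.35, 1.57 and 0.919 TPM with LrpprcWT and 0.710, 0.721 and 0.583 TPM with LrpprcP27A. Every LrpprcP27A value was below every LrpprcWT value, as for 34.8% of the 21450 genes above 0 in any library (two-sided exact permutation test, p = 0.1, which is the lowest p possible with 3 against 3). *S100b* was not tested in the fit with the filter. Without the filter the log2 difference was -0.44 (limma adjusted p = 0.0936, or 0.0543 in the paired fit). It was -0.27 when median-of-ratios scaling was added (limma adjusted p = 0.362, or 0.200 in the paired fit). The gene overlaps *Dip2a* on the opposite strand, and the library kit does not mark strand, so reads of the overlap cannot be assigned to one of them. *Mbp* and *Prx* overlap non-coding genes or a pseudogene on the opposite strand, and *Ngfr* a non-coding gene on its own strand, with the same limit.

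*Ngfr* (chromosome 11, 95459638 to 95478561) encodes the low-affinity neurotrophin receptor p75, which repair and immature Schwann cells carry at high levels. It had 2.23, 1.15 and 1.58 TPM with LrpprcWT and 1.18, 0.769 and 0.546 TPM with LrpprcP27A. LrpprcP27A replicate 1 lay just above LrpprcWT replicate 2, and within each pair the LrpprcP27A muscle was lower, at 0.529, 0.668 and 0.345 times its partner. The log2 difference was -0.53 (standard error 0.20, adjusted p = 0.0710 from limma). *Ngfr* fell in the paired fit (limma adjusted p = 0.00776), and did not pass when that fit used median-of-ratios scaling (limma adjusted p = 0.0725) or no filter (limma adjusted p = 0.0571). The log2 difference was -0.32 after median-of-ratios scaling and -0.14 after quantile normalization (limma adjusted p = 0.224 and 0.551 unpaired). Without LrpprcWT replicate 2 the unpaired adjusted p from limma was 0.0211.

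*Gdnf* (chromosome 15, 7840327 to 7867060) encodes glial cell line-derived neurotrophic factor, a survival factor for motor neurons that both muscle fibres and Schwann cells produce. It had 2.84, 2.25 and 3.18 TPM in the LrpprcWT libraries and 0.738, 0.666 and 0.457 TPM in the LrpprcP27A libraries. The groups were far apart, and the LrpprcP27A muscles had 0.260, 0.295 and 0.144 times the level of their partners. *Gdnf* fell from 2.76 ± 0.467 to 0.620 ± 0.146 TPM (SD, n = 3), a log2 difference of -1.21 (standard error 0.15, adjusted p = 0.0100 from limma). Of the genes tested, 2.75% had a lower log2 difference. Its log2 difference was -0.996 after median-of-ratios scaling (adjusted p = 0.0165 from limma) and -0.82 after quantile normalization (adjusted p = 0.0227 from limma). The call was lost without LrpprcWT replicate 3 (adjusted p = 0.0761 from limma) and with no filter on low values (adjusted p = 0.0514 from limma).

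The sequences before the starts of *Gdnf*, *Ngfr* and *Prx* are shown. *Gdnf* differed most, *Ngfr* differed within pairs and *Prx* stands for the myelin genes that were not called. They are RefSeq windows of 250 bases up to the start on GRCm38.p6, a different build from the gene positions above. The windows kept here are of 5 of the 7 genes. None is of *Mbp* or *Sox10*, which does not show that RefSeq holds no window for them. Capitals mark CANNTG (the E-box read by muscle regulatory factors such as myogenin), ACAAAG (a core read by Sox factors) and GCGTGGG (a core read by Egr factors), searched on both strands, and none of the marked stretches overlap.
Gdnf, first start, chr15:7809798-7810047, plus strand: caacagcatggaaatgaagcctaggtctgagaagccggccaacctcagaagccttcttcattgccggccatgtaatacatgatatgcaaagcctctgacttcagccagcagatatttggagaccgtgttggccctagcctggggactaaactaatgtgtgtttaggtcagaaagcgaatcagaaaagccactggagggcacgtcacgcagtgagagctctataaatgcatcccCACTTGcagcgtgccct
Gdnf, second start, chr15:7813477-7813726, plus strand: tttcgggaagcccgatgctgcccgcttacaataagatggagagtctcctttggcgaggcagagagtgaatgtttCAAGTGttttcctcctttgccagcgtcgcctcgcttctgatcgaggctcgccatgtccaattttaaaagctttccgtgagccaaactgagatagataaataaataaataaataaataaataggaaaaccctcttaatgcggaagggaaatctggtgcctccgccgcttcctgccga
Ngfr, chr11:95587699-95587948, minus strand: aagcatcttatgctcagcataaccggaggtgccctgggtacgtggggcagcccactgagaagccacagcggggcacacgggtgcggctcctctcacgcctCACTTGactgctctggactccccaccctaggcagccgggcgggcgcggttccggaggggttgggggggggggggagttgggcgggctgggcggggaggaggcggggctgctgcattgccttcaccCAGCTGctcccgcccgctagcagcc
Prx, chr7:27499074-27499323, plus strand: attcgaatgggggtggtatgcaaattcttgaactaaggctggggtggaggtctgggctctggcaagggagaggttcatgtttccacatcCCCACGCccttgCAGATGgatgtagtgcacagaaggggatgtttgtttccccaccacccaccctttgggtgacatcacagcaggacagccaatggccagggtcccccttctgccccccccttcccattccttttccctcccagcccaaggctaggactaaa
Each *Gdnf* window held 1 E-box, the *Ngfr* window held 2 and the *Prx* window held 1. Of the *Pmp22* windows, which are not shown, only that at chr11:63132319-63132568 held an E-box. At least 1 was held by 66.2% of the 32851 RefSeq windows of this length. No ACAAAG was in the 4 windows shown (16.5% of all windows held one). The *Prx* window held the Egr core on the opposite strand, as 4.3% of all windows did. These matches are letters in a window and not binding sites.

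Around the 7 genes, 3 further lists of nerve genes held 50 genes, of which 49 had a row in the table and 20 were tested. Of the 20, 5 were called lower and none higher, against 23.3% and 1.34% of all genes tested, and 15 were not called. Their median log2 difference was -0.35, where that of all genes was -0.32, and it was -0.032 after median-of-ratios scaling, where that of all genes was -0.0047. With the replicate block 10 were lower and 1 higher, against 48.4% and 2.69% of all genes. After median-of-ratios scaling 1 was lower, *Matn2*, against 6.03% of all genes. None of them was called without LrpprcWT replicate 1, LrpprcWT replicate 3 or LrpprcP27A replicate 3. In those fits 267, 14 and 444 genes in the whole table were called lower.

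Among other myelin sheath genes, 5 of 15 were tested and *Drp2* alone was called lower, where 23.3% of all genes tested were. *Drp2*, which encodes the partner of periaxin in the outer Schwann cell membrane, had 2.87, 1.97 and 1.98 TPM with LrpprcWT and 1.62, 0.846 and 1.14 TPM with LrpprcP27A (log2 difference -0.58, standard error 0.18, adjusted p = 0.0491 from limma). *Drp2* lost its call after median-of-ratios scaling (adjusted p = 0.179 from limma) and had an adjusted p of up to 0.175 with each library left out in turn. *Cnp*, a myelin enzyme also present in other cells, was 7.45 ± 0.545 TPM with LrpprcWT and 5.51 ± 0.792 TPM with LrpprcP27A (SD, n = 3). The limma adjusted p of *Cnp* was 0.0732, or 0.0248 in the paired fit, and its log2 difference was -0.06 after median-of-ratios scaling. *Mal*, a myelin lipid raft protein, was highest in LrpprcWT replicate 2 and lowest in LrpprcP27A replicate 2, at 1.71 and 0.551 TPM, and was the second nearest gene to *Mbp* in pattern.

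Among other Schwann cell genes, 7 of 15 were tested and 3 were called lower, where 23.3% of all genes tested were. All 7 had a log2 difference below 0, as did 88% of all genes tested. For so few genes these counts are near the shares of all genes. After median-of-ratios scaling the log2 difference of *Cadm4* was 0.13. *Egr2*, the transcription factor that drives myelination and is also an immediate early gene in many cells, had 5.11, 4.82 and 10.8 TPM with LrpprcWT and 2.05, 2.79 and 1.78 TPM with LrpprcP27A. Its LrpprcP27A values all lay below its LrpprcWT values, as for 47.6% of all genes tested. Its log2 difference was -1.24 (standard error 0.27, limma adjusted p = 0.0231, or 0.0519 after median-of-ratios scaling). *Matn2*, a matrix protein, had 6.05, 3.25 and 4.37 TPM with LrpprcWT and 2.15, 1.12 and 1.40 TPM with LrpprcP27A (log2 difference -1.11, standard error 0.22, adjusted p = 0.0187 from limma). *Scn7a*, a sodium-sensing channel, had 2.54, 1.44 and 2.31 TPM with LrpprcWT and 0.910, 1.01 and 1.06 TPM with LrpprcP27A (limma adjusted p = 0.0358, or 0.0672 after median-of-ratios scaling). The *Scn7a* mean with LrpprcP27A was 0.993 TPM, so the gene reached a mean of 1 TPM through the LrpprcWT group. *Erbb3*, the neuregulin receptor that Schwann cells depend on, had 3.24 ± 1.09 and 1.85 ± 0.375 TPM (SD, n = 3) and overlapping groups, with a limma adjusted p of 0.0789, or 0.00470 in the paired fit. *Plekha4* and *Lgi4* also passed with the block alone (adjusted p = 0.00348 and 0.0471 from limma), where 48.4% of all genes were called lower. *Plekha4* reached a mean of 1 TPM through the LrpprcWT group, with a LrpprcP27A mean of 0.841 TPM. *Cadm4*, an adhesion protein of the Schwann cell surface that faces the axon, was called in neither fit (2.49 ± 0.152 against 2.20 ± 0.350 TPM, SD, n = 3, adjusted p = 0.470 from limma unpaired). Leaving out 1 library raised the adjusted p to at most 0.0907 for *Egr2*, 0.102 for *Matn2* and 0.137 for *Scn7a*.

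Among other nerve repair and trophic genes, 8 of the 19 in the table were tested and *Ntf5* alone was called lower, where 23.3% of all genes tested were. *Ntf5* (neurotrophin 4/5, a factor that muscle supplies to motor neurons) had 10.6, 7.51 and 11.0 TPM with LrpprcWT and 6.83, 5.46 and 4.83 TPM with LrpprcP27A. Its log2 difference was -0.67 (standard error 0.18, limma adjusted p = 0.0339, or 0.109 after median-of-ratios scaling), with an adjusted p of up to 0.137 when 1 library was left out. *Nrtn*, neurturin, a relative of Gdnf, ran the other way, with 1.57, 2.47 and 2.13 TPM in the LrpprcWT libraries and 2.50, 2.89 and 3.88 TPM in the LrpprcP27A libraries. All of its LrpprcP27A values lay above its LrpprcWT values, as for 3.51% of all genes tested (log2 difference 0.42, standard error 0.18, limma adjusted p = 0.102, or 0.0229 in the paired fit). The Gdnf receptor genes *Ret* and *Gfra1* had 2.39 ± 0.897 and 1.42 ± 0.538 TPM with LrpprcWT and 2.24 ± 0.764 and 1.12 ± 0.155 TPM with LrpprcP27A (SD, n = 3, adjusted p = 0.855 and 0.439 from limma). *Jun*, the regulator of the repair Schwann cell and an immediate early gene elsewhere, ranged from 106 to 255 TPM with LrpprcWT and from 87.2 to 141 TPM with LrpprcP27A (limma adjusted p = 0.139, or 0.00767 in the paired fit). *Sort1*, sortilin, which pairs with Ngfr, was 24.9 ± 1.45 and 24.3 ± 4.77 TPM (SD, n = 3, adjusted p = 0.797 from limma).

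**Figure D3:**
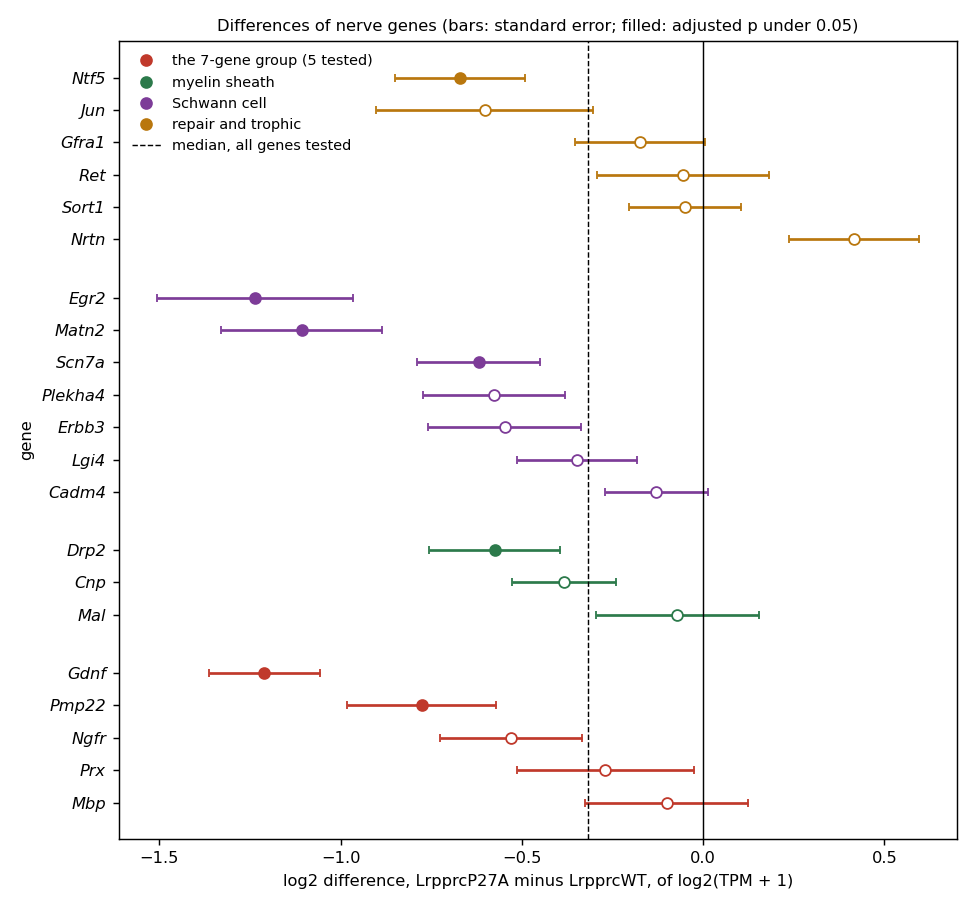
Log2 difference (LrpprcP27A minus LrpprcWT, x axis) of the tested nerve genes named in the text, with the standard error from limma as bars, filled where the adjusted p was under 0.05. *Gdnf*, *Egr2* and *Matn2* lie between -1.24 and -1.11, and *Prx*, *Mbp* and *Mal* lie between -0.27 and -0.07, where the median of all genes is -0.32 (dashed line).

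The genes nearest in pattern to each tested gene were found by the root mean square difference of centred log2(TPM + 1) over the 6 libraries. *Prx* was nearest to *Vit* and *Itgb4* (0.080 and 0.11), the latter an integrin of Schwann cells and perineurial cells. *Mbp* was nearest to *Baiap2l2* and *Mal* (0.11 and 0.12). *Gdnf* was nearest to *Sat1* and *Pnma8b* (both 0.076), *Ngfr* to *Dip2a* and *Apobec1* (0.042 and 0.049), and *Pmp22* to *Nupr1* and *B9d2* (0.072 and 0.087). Between the 5 tested genes, *Mbp* and *Prx* differed least (0.14) and *Mbp* and *Gdnf* most (0.66).

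Markers of the other cells in and around nerve and muscle were summed per library, and their counts of genes called lower are to be read against 23.3% of all genes tested on the deposited scale and 6.03% after median-of-ratios scaling. Of 8 axon genes, *Chat* was at 0 in every library and *Nefl*, *Nefm* and *Nefh* were near 0, and *Uchl1*, which muscle fibres can also express, was the one tested and fell from 9.46 ± 3.87 to 3.35 ± 0.748 TPM (SD, n = 3, adjusted p = 0.0259 from limma). The oligodendrocyte genes *Mobp* and *Olig2* were at 0 in every library and *Mog* was at most 0.030 TPM, so that *Mbp* was read in the near absence of central myelin markers. *Aspa*, the one oligodendrocyte gene tested, is expressed outside the brain too and was called lower on the deposited scale, but not after median-of-ratios scaling (limma adjusted p = 0.0608). The 6 perineurial markers summed to 6.48 to 10.1 TPM with LrpprcWT and 4.53 to 8.11 TPM with LrpprcP27A, and neither of the 2 tested was called. Of the 9 denervation-responsive muscle genes, all 8 tested were called lower on either scale. Their median log2 difference was -1.71 (-1.48 after median-of-ratios scaling). The 9 genes summed to 105 to 235 TPM with LrpprcWT and 35.5 to 44.2 TPM with LrpprcP27A. *Chrng* and *Runx1* reached a mean of 1 TPM through the LrpprcWT group, since their LrpprcP27A means were 0.158 and 0.817 TPM. With each library left out in turn, *Chrng* and *Chrna1* kept their calls. The other tested genes of this list reached an adjusted p from limma of 0.0830 to 0.109. Fibroblast and macrophage markers were called lower in 5 of 5 genes each, or in 3 and 2 after median-of-ratios scaling, with sums of 811 to 1350 against 212 to 464 TPM and of 35.1 to 68.7 against 12.4 to 24.6 TPM. Of the satellite cell markers 2 of 3 tested were lower, of the endothelial markers 2 of 5, of the pericyte and smooth muscle markers 1 of 5 and of the adipocyte markers none of 2, the endothelial and pericyte counts being near the share of all genes. After median-of-ratios scaling these counts from limma were 1, 0, 0 and 0. *Myf5*, a satellite cell marker counted here, also reached a mean of 1 TPM through the LrpprcWT group (0.777 TPM with LrpprcP27A). With no filter limma called none of the denervation-responsive, fibroblast and macrophage genes, of which 9 of 9, 5 of 5 and 5 of 5 had an unadjusted p under 0.05. The sums were 14.8 to 16.4 against 12.02 to 12.2 TPM for satellite cells, 182 to 327 against 124 to 178 TPM for endothelium, 264 to 380 against 208 to 288 TPM for pericytes and smooth muscle, and 6.99 to 21.6 against 13.1 to 28.3 TPM for adipocytes. The means of *Gdnf*, *Pmp22*, *S100b* and *Ngfr* were lower with LrpprcP27A, like the sums of the denervation-responsive, fibroblast and macrophage genes. The groups of *Ngfr* overlapped. A log2 difference below 0 was shared by 88% of all genes tested. The part of the denervation-responsive, fibroblast and macrophage genes in the values of these 4 genes was not tested.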

How the data were processed

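RNA-seq was done on 6 TA muscles, 3 per group. Paired-end reads of TruSeq RNA libraries were trimmed, filtered and aligned to GRCm39 by the authors, who used CLC Genomics Workbench. They deposited TPM per gene, which sum to 1000000 in each library and keep no depth. The annotation is not given in the sources used here. From the deposited TPM, log2(TPM + 1) was compared with limma 3.58.1 in R 4.3.3 (eBayes with trend, Benjamini-Hochberg adjustment). The study's methods name the Kruskal-Wallis test, used here only as an alternative, because with 3 against 3 its p cannot be small. In these data no gene reached an adjusted p under 0.05 with it. The study's own lists of changed genes used a p under 0.05, not described as adjusted, with fold-change cut-offs. For the single genes it plotted it gave an unpaired t test. The fit was tested on simulated data. The labels say that samples are replicates. Same-numbered libraries were taken as the contralateral muscles of a mouse, which the study describes without naming the libraries, and deviations from the group means correlated by 0.36, 0.53 and 0.36 in the 3 pairs over 11611 genes. Libraries of different numbers were not compared in this way, so these correlations cannot show that a pair came from the same mouse.

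The 7 genes and the lists were chosen with earlier results of these data known. Named are all 7 genes, the 4 genes of highest mean in each further nerve list and any others called there, the 2 tested genes nearest in pattern to each tested gene, and defining markers at 0. The rule also takes the 4 highest genes of each marker list, which are mostly given here by sums and counts. *Lgi4*, *Plekha4*, *Mal*, *Ret* and *Gfra1* were added after their values were seen. Some genes that the rule takes are not reported here.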

Additional observations from a re-analysis of the deposited data

How the results depend on the processing

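At an adjusted p under 0.05 from limma 2705 genes were lower and 156 higher. These were 42 and 9 with no filter (6671 lower at an unadjusted p under 0.05), 1560 and 116 among genes with a mean of at least 5 TPM, 5619 and 312 with the replicate block, 700 and 610 after median-of-ratios scaling, 518 and 493 after quantile normalization, 662 and 221 when rescaled without mitochondrial and ribosomal RNA genes, 1839 and 1561 with the block and median-of-ratios scaling, and 0 and 0 with the Kruskal-Wallis test, whose unadjusted calls are the non-overlapping genes, 5530 and 407. Leaving out 1 library at a time gave 14 to 6918 and 3 to 304. Among the alternatives added after the data were seen, median-of-ratios scaling with no filter gave 74 and 45, and with the block added 1154 and 771. Of the 7 genes, 2 were called lower. The count was 0 with no filter or the Kruskal-Wallis test, 1 with a mean of at least 5 TPM, under the 3 other scalings, with the block and median-of-ratios scaling and in both added fits on that scale, and 0 to 3 with a library left out, 0 without LrpprcWT replicate 3. Of the related nerve genes 5 were called lower. The count was 1 with no filter, with a mean of at least 5 TPM, with quantile normalization and under median-of-ratios scaling with or without the filter, 2 with the rescaling and with the block and median-of-ratios scaling, 3 when the filter was also dropped, 8 with the block and no filter, 10 with the block, 0 with the Kruskal-Wallis test, and 0 to 8 with a library left out. The log2 difference of *Mbp*, -0.10, became 0.17 with median-of-ratios scaling, with or without the filter and the block, 0.29 with quantile normalization and 0.042 with the rescaling, and ran from -0.30 to 0.076 with a library left out. That of *Prx*, -0.27, became 0.11 with quantile normalization. *Pmp22* kept its sign in 19 of 19 alternatives and lost its call in 12, and *Gdnf* kept its sign in 18 of 18 and lost its call in 3. *Gdnf* and *Ngfr* had no fit at a mean of at least 5 TPM. The causes were not tested. Since TPM keeps no depth, no counting error can be given for the low values of *Sox10*, *S100b*, *Ngfr* and *Gdnf*.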

Other observations

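Several nerve genes lay under the level set for the test. *Gldn*, which encodes gliomedin, a protein of the nodes of Ranvier, had 1.44, 1.08 and 1.38 TPM with LrpprcWT and 0.248, 0.241 and 0.328 TPM with LrpprcP27A. It was the only gene of the 3 further nerve lists called in the fit with no filter (log2 difference -0.85, adjusted p = 0.0408 from limma), and it was chosen after its values were seen. *Stmn2*, a protein of growing axons, had 1.07 ± 0.382 and 0.605 ± 0.208 TPM (SD, n = 3, adjusted p = 0.178 from limma with no filter).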
